A study of Mus musculus with 9 samples.

Results

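DNA methylation in the oocyte is written, copied and removed by a small set of enzymes, and their transcripts were followed here through cryopreservation. The set was given as 10 gene symbols: the methyltransferases Dnmt1, Dnmt3a, Dnmt3b and Dnmt3l, the Tet enzymes Tet1, Tet2 and Tet3, the cofactor Uhrf1, the maternal protein Dppa3 and the glycosylase Tdg. Of these 10, 9 had a row among the 26358 genes of the deposited table, and all 9 passed the filter on low counts that left 17545 genes for testing. Tdg, which excises oxidised cytosine, was not analysed here. In the deposited coordinates (GRCm38), Dnmt1 (ENSMUSG00000004099) lies at chr9:20907209-20952979 and Uhrf1 (ENSMUSG00000001228) at chr17:56303321-56323486. Dnmt3a (ENSMUSG00000020661) lies at chr12:3806007-3914443, Dnmt3b (ENSMUSG00000027478) at chr2:153649450-153687730 and Dnmt3l (ENSMUSG00000000730) at chr10:78041947-78063622. Tet1 (ENSMUSG00000047146) lies at chr10:62804570-62908996, Tet2 (ENSMUSG00000040943) at chr3:133463679-133545139, Tet3 (ENSMUSG00000034832) at chr6:83362373-83459084 and Dppa3 (ENSMUSG00000046323) at chr6:122626410-122630272.

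The libraries were 9 bulk preparations of poly(A) RNA from mouse oocytes, 3 in each of 3 groups. In cryopreservation-2, oocytes were frozen in a straw, with EG at 17.5%, trehalose at 1 M and nanoparticles that the labels write as PVA/Fe3O4/GO. In cryopreservation-1, a cryotop was the carrier and the solution held EG and DMSO at 15% each and sucrose at 0.5 M. Fresh oocytes were not frozen. The methods differed at once in carrier, in solutes and in nanoparticles, so each comparison is between whole protocols. The labels give neither the stage of the oocytes nor the age or strain of the mice, nor do they say whether replicates were separate animals or pools, so each p-value reflects no more than the spread of these libraries, which may be technical.

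Dnmt1 copies methylation onto newly made DNA, and Uhrf1 brings it to sites where a single strand is methylated. Dnmt3a, with its catalytically inactive partner Dnmt3l, sets the methylation of the growing mouse oocyte, imprints included, whereas Dnmt3b acts mainly after implantation. Tet enzymes oxidise methylcytosine, and Tet3 is the form known for its action on the paternal genome of the mouse zygote. Dppa3, also called Stella, shields the maternal genome from that oxidation and keeps Uhrf1 out of the oocyte nucleus. The oocyte stores many such transcripts for use after fertilisation.

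Total counts lay between 49337232 and 80877288 per library, with 49337232 to 51369012 in cryopreservation-2, 64276885 to 80877288 in cryopreservation-1 and 73899130 to 80100460 in fresh. Levels are therefore given as CPM (counts scaled to TMM-adjusted library size) with the SD over 3 libraries, and as FPKM where genes are compared with each other. A count of 0 would allow up to 3 counts, equal to 0.0372 to 0.0575 CPM across libraries, a limit for counting error alone. Oocyte markers took 1.13% to 2.05% of the counts of a library. Markers of cumulus and granulosa cells took 0.113% to 0.176% in cryopreservation-2, 0.103% to 0.127% in cryopreservation-1 and 0.0950% to 0.126% in fresh. Of these markers 8 were tested and 0 passed the test in any comparison. Markers of other cell types differed widely in level. Ptx3, Ptprc and Col1a1, which define cumulus, blood and stromal cells, had at most 14 counts in any library, while Serpine2 and Cyp19a1 of the cumulus and granulosa list had 55504 to 94527 and 1671 to 5264 counts, Pecam1 and Myh11 of the stromal and endothelial list 3634 to 10767 and 1166 to 2173, and C1qb of the immune and blood list 93 to 802. No read was found for 8667 genes in cryopreservation-2 replicate 1, for 8421 in cryopreservation-1 replicate 3 and for 9108 in fresh replicate 3, while the other 6 libraries missed 7744 or fewer. Fits without these 3 libraries are described with the dependence on processing. In bulk RNA, fewer cells of a type and less RNA per cell cannot be told apart.

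The genes differ in the sequences at their starts and tails. In mouse, the oocyte form of Dnmt1 starts at a first exon upstream of the one used by somatic cells and lacks the N-terminal stretch of the somatic protein. The deposited Dnmt1 row spans chr9:20907209-20952979 on the minus strand (GRCm38), yet it lists a transcript whose start in GENCODE M21 is chr9:20959888, 6909 bases upstream of that span. It was the sole member whose bounds differed from GENCODE. Gene counts do not separate the forms, so which start the oocytes used was not tested. The windows from 250 bases before to 50 after each start are shown because they differ in CpG content (RefSeq starts on GRCm38.p6, minus strand, CG in capitals).
Dnmt1 upstream start, chr9:20959839-20960138: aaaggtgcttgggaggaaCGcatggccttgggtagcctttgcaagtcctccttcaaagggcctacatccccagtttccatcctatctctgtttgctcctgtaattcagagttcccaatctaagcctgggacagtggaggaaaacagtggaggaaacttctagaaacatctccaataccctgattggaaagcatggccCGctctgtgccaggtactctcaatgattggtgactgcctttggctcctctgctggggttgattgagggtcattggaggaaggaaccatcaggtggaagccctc
Dnmt1 start at the bound of the deposited span, chr9:20952930-20953229: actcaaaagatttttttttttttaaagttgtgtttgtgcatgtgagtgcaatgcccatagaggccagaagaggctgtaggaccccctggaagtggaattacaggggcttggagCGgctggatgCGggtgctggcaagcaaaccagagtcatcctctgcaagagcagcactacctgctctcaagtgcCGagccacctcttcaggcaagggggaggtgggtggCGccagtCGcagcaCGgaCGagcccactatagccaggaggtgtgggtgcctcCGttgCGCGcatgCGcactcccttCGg
The upstream window held 2 CpG, and 14.1% of 32851 mouse promoter windows held fewer. The window at the bound of the span, chr9:20952979, held 12, and 60.4% of the windows held fewer. A further annotated start inside the span, at chr9:20952623, had 33 CpG in its window, and 91.4% held fewer. The median window held 7.

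Stored transcripts of the oocyte often carry the cytoplasmic polyadenylation element, known in frog and mouse oocytes to bring about lengthening of a shortened tail. It matters to how these data were made, since oligo(dT) beads recover a transcript through its tail. The letters UUUUAU and UUUUAAU were searched on the transcript strand in the last 150 bases of each gene's 3′ UTR (GENCODE M21, GRCm38). They were found in Dnmt1, Dnmt3a, Tet1, Tet2 and Tet3 and not in Uhrf1, Dnmt3b, Dnmt3l and Dppa3. Of 12292 transcripts with a 3′ UTR of at least 150 bases, 25.8% held at least 1 of these motifs there, and UUUUAAU can overlap the polyadenylation signal AAUAAA. The stretches around each match are shown with the motif in capitals because tail control bears on poly(A) recovery.
Dnmt1: gacuugauguagUUUUAUauguuguaauau
Dnmt3a: uguuuauauauaUUUUAUuuucgcuauaaa
Tet1: guauaaaauaaaUUUUAUacuucua
Tet2: caugugaguguUUUUAAUaaaauuuauauu
Tet3, 110 from the end: uuuugauuuguaUUUUAUuauaauuuacac
Tet3, 36 from the end: uauugugggugUUUUAAUaaauuuuauauu
Tet3, 26 from the end: uguuuuaauaaaUUUUAUauuuauuuuuug
Tet3 held 3 matches and each of the other 4 genes held 1. The sole Tet1 match, 13 from the end, lay after the polyadenylation signal at 19, and the Tet3 match at 26 lay after the signal at 32. A match is a description of letters, and tail lengths were not measured.

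Dppa3 stood far above the enzymes in every group. Its level per length averaged 3826 ± 533 FPKM in cryopreservation-2, 3512 ± 567 FPKM in cryopreservation-1 and 3218 ± 356 FPKM in fresh (SD, n = 3 each). By mean FPKM it ranked 5 from the top of 22695 genes above 0 in cryopreservation-2, 9 of 22785 in cryopreservation-1 and 10 of 22055 in fresh. Dppa3 made up 94.4%, 92.9% and 94.1% of the summed FPKM of the 9 genes in cryopreservation-2, cryopreservation-1 and fresh. It exceeded Dnmt1, the next gene, 44.1-fold in cryopreservation-2, 36.7-fold in cryopreservation-1 and 45.8-fold in fresh, with no overlap between the libraries of the genes. FPKM divides by length, and the Dppa3 transcript was the shortest of the 9 at 833 bases, against a median of 3215 bases over the background transcripts of the 3′ UTR search.

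Below Dppa3 came a middle tier of Dnmt1, Uhrf1 and Tet3. Dnmt1 averaged 86.7 ± 17.7, 95.8 ± 27.4 and 70.2 ± 22.5 FPKM in cryopreservation-2, cryopreservation-1 and fresh (SD, n = 3 each). Uhrf1 averaged 71.4 ± 21.0, 81.5 ± 19.9 and 48.7 ± 20.4 FPKM in the same order of groups. Tet3 averaged 38.8 ± 13.3, 45.8 ± 6.43 and 51.9 ± 10.6 FPKM. Within cryopreservation-2 and within fresh, neighbours in this tier overlapped in their libraries, so the order of neighbours there was not larger than the spread. In cryopreservation-2, Dnmt1 (70.1 to 105 FPKM) lay above Tet3 (24.5 to 51.0 FPKM) without overlap, while in fresh these genes overlapped. In cryopreservation-1, Dnmt1 and Uhrf1 overlapped, and Tet3 lay 1.78-fold below Uhrf1 without overlap.

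The de novo enzymes formed a lower tier. Dnmt3a averaged 14.2 ± 4.75, 19.2 ± 6.06 and 12.9 ± 3.42 FPKM in cryopreservation-2, cryopreservation-1 and fresh (SD, n = 3 each), and Dnmt3b averaged 6.16 ± 0.688, 11.3 ± 2.04 and 9.56 ± 2.69 FPKM. Dnmt3l, the cofactor, averaged 4.59 ± 1.45, 5.21 ± 0.404 and 3.31 ± 0.334 FPKM. Dnmt3a lay above Dnmt3b without overlap in both cryopreserved groups and overlapped it in fresh. Dnmt3b and Dnmt3l overlapped in cryopreservation-2 and were separate in cryopreservation-1 and in fresh.

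Tet1 and Tet2 were the scarcest of the 9 genes, at the 29.1 to 40.6 percentile of the genes above 0 in each group. Tet2 averaged 0.206 FPKM in cryopreservation-2, 0.113 in cryopreservation-1 and 0.205 in fresh. Tet1 averaged 0.0851, 0.186 and 0.196 FPKM in the same groups, and their libraries overlapped in each group. Tet3 therefore held 99.2%, 99.4% and 99.2% of the summed FPKM of the 3 Tet genes in cryopreservation-2, cryopreservation-1 and fresh. In each of the 9 libraries the share was at least 98.8%.

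**Figure D1:**
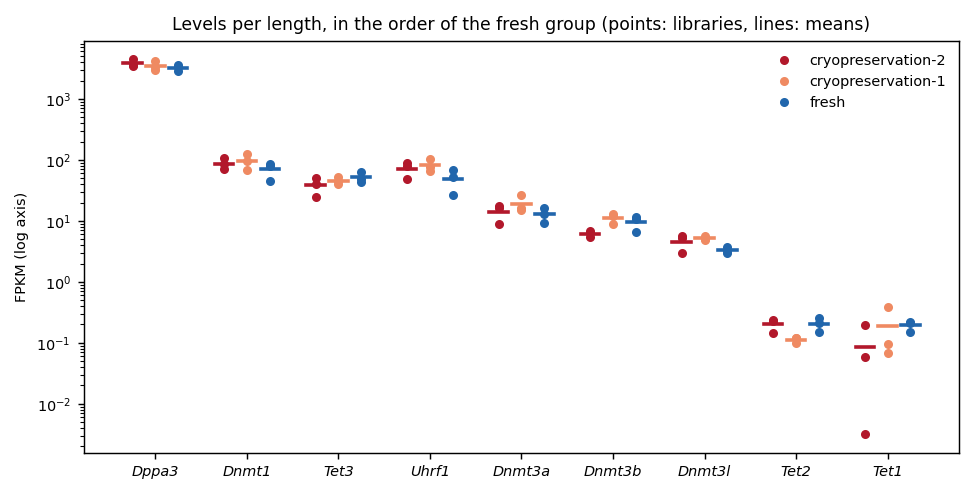
FPKM of each of the 9 genes on a log axis, with a point for each library, a line at each group mean and the genes ordered by their mean in fresh. Dppa3 lies above all others, Dnmt1, Tet3 and Uhrf1 form a middle tier, and Tet2 and Tet1 lie at or below 0.392 FPKM.

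In no comparison did any of the 9 genes pass the test. By edgeR's quasi-likelihood test at an adjusted p under 0.05, 0 of 9 were called in cryopreservation-2 against fresh, where 5.38% of all tested genes were. In cryopreservation-1 against fresh 0 of 9 were called, against a background of 0%, and in cryopreservation-2 against cryopreservation-1 again 0 of 9, against 2.75%. At an unadjusted p under 0.05 the counts were 2 of 9 against 21.8% of all genes in cryopreservation-2 against fresh, 2 of 9 against 4.72% in cryopreservation-1 against fresh, and 1 of 9 against 18.9% in cryopreservation-2 against cryopreservation-1. The median log2 fold change of the 9 was 0.00 in cryopreservation-2 against fresh (all tested genes -0.06), 0.19 in cryopreservation-1 against fresh (all 0.02) and -0.27 in cryopreservation-2 against cryopreservation-1 (all -0.07). These comparisons share libraries and are not independent of each other.

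Same-number libraries of cryopreservation-1 and fresh deviated together across genes. In all 3 of these pairs Dnmt1, Uhrf1, Dnmt3a, Dnmt3b and Dnmt3l were higher in cryopreservation-1, as were 17.3% of all tested genes. Tet2 and Tet3 were lower in all 3, as were 12.3% of all tested genes, while Tet1 and Dppa3 were mixed. With the replicate number as a block in a fit of these 6 libraries, an alternative chosen after seeing the data, edgeR called 0 of the 9 and 1 of all genes. Uhrf1 had the smallest p of the 9 in that fit, with a log2 fold change of 0.72 (SE 0.16, unadjusted p = 0.00408, edgeR adjusted p = 0.625). Its SE was 0.32 in the fit of all 9 libraries without the block, so these SEs differ in the libraries used as well as in the block.

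Dnmt3b came nearest to a call. It stood at 40.1, 34.3 and 28.9 CPM in the cryopreservation-2 libraries, 69.9, 53.1 and 74.3 CPM in cryopreservation-1 and 61.8, 42.4 and 69.0 CPM in fresh. All 3 cryopreservation-2 libraries lay below all 6 others, and the other 2 groups overlapped. Libraries of cryopreservation-2 and fresh did not overlap, with cryopreservation-2 lower, for 12.4% of all tested genes, and for 15.2% between cryopreservation-2 and cryopreservation-1. In cryopreservation-2 against fresh its log2 fold change was -0.75 (SE 0.25, 95% interval -1.29 to -0.20), with an edgeR adjusted p of 0.108, which missed the threshold. In cryopreservation-2 against cryopreservation-1 it was -0.93 (SE 0.25, 95% interval -1.48 to -0.39), with an edgeR adjusted p of 0.0722. DESeq2 called Dnmt3b lower in both, with an adjusted p of 0.0457 against fresh, where it called 6.83% of its genes lower, and 0.0135 against cryopreservation-1, where it called 5.92% lower. Over all alternatives the adjusted p ranged from 0.0457 to 0.294 and from 0.0135 to 0.237. In cryopreservation-1 against fresh the log2 fold change was 0.19 (SE 0.24), with an edgeR adjusted p of 1. Dnmt3c, a rodent copy of Dnmt3b that lies beside it, had 59 to 458 counts per library, 2.82% to 12.2% of the Dnmt3b count, so reads may be shared between them and both levels are uncertain to that extent.

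Neither of the other de novo genes was called, and cryopreservation-2 overlapped fresh for both. Dnmt3a, the main enzyme of oocyte methylation, stood at 169, 316 and 276 CPM in cryopreservation-2, 501, 291 and 304 CPM in cryopreservation-1 and 302, 199 and 259 CPM in fresh. The groups overlapped throughout, and cryopreservation-1 replicate 1 was the highest library. Its log2 fold change was 0.00 in cryopreservation-2 against fresh (95% interval -0.65 to 0.66), as a ratio 0.636 to 1.58. In cryopreservation-1 against fresh it was 0.53 (SE 0.30, edgeR adjusted p = 1), and between the methods -0.53 (SE 0.30, edgeR adjusted p = 0.383). Per length, the ratio of Dnmt3a to Dnmt3b averaged 2.36 in cryopreservation-2 (1.29 to 2.94), 1.71 in cryopreservation-1 (1.26 to 2.20) and 1.36 in fresh (1.15 to 1.50), and these ranges overlapped. Dnmt3l had 10.2, 18.1 and 16.1 CPM in cryopreservation-2, 16.7, 17.6 and 18.9 CPM in cryopreservation-1 and 10.1, 14.1 and 11.5 CPM in fresh. All 3 cryopreservation-1 libraries lay above all 3 fresh libraries, as they did for 6.37% of all tested genes, while cryopreservation-2 overlapped both. The log2 fold change of Dnmt3l in cryopreservation-1 against fresh was 0.58 (SE 0.27, edgeR adjusted p = 1), and in cryopreservation-2 against fresh it was 0.32 (SE 0.27, edgeR adjusted p = 0.564).

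**Figure D2:**
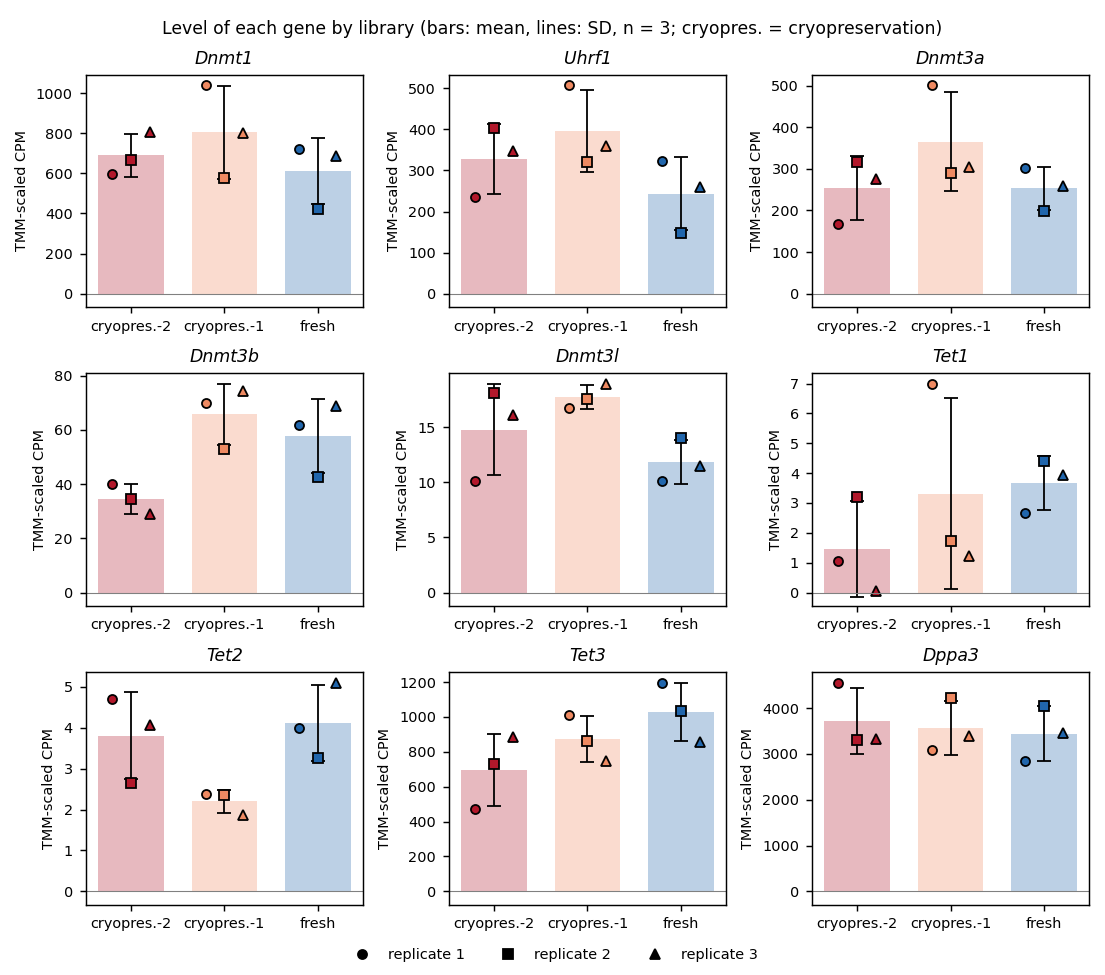
TMM-scaled CPM of each gene in the 9 libraries, with a bar at the group mean, a line for the SD (n = 3) and a point for each library, the shape giving the replicate number. Dnmt3b is the gene whose cryopreservation-2 libraries (28.9 to 40.1 CPM) lie below every other library, and Tet1 has the widest relative spread in the 2 cryopreserved groups, though not in fresh.

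The maintenance pair varied together, and widely, within groups. Dnmt1 stood at 596, 667 and 808 CPM in cryopreservation-2, 1040, 575 and 799 CPM in cryopreservation-1 and 721, 422 and 688 CPM in fresh. Uhrf1 stood at 235, 402 and 346 CPM in cryopreservation-2, 508, 319 and 360 CPM in cryopreservation-1 and 322, 147 and 261 CPM in fresh. For both genes the groups overlapped, the highest library was cryopreservation-1 replicate 1 and the lowest was fresh replicate 2. Dnmt1 had a log2 fold change of 0.18 in cryopreservation-2 against fresh (SE 0.27, edgeR adjusted p = 0.776) and 0.40 in cryopreservation-1 against fresh (SE 0.27, edgeR adjusted p = 1). That of Uhrf1 was 0.43 (SE 0.32, edgeR adjusted p = 0.482) and 0.70 (SE 0.32, edgeR adjusted p = 1) in the same comparisons, and its unadjusted edgeR p in cryopreservation-1 against fresh was 0.0498. Between the methods, cryopreservation-2 against cryopreservation-1 gave -0.22 for Dnmt1 (SE 0.27, edgeR adjusted p = 0.758) and -0.27 for Uhrf1 (SE 0.31, edgeR adjusted p = 0.740).

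Tet3, the oxidising enzyme of the egg, had its lowest mean in cryopreservation-2. It stood at 472, 731 and 884 CPM in cryopreservation-2, 1010, 859 and 746 CPM in cryopreservation-1 and 1195, 1034 and 858 CPM in fresh. Cryopreservation-2 replicate 3 lay above fresh replicate 3, so the groups overlapped, and replicate 1 was the lowest of all libraries. The log2 fold change was -0.56 in cryopreservation-2 against fresh (SE 0.25, 95% interval -1.11 to -0.02), with an unadjusted edgeR p of 0.0446 and an adjusted p of 0.217. It was -0.24 in cryopreservation-1 against fresh (SE 0.25, edgeR adjusted p = 1) and -0.33 in cryopreservation-2 against cryopreservation-1 (SE 0.25, edgeR adjusted p = 0.551). Per length, Tet3 stood to Dnmt1 at 0.439 in cryopreservation-2 (0.350 to 0.484), 0.501 in cryopreservation-1 (0.412 to 0.660) and 0.789 in fresh (0.551 to 1.08). The cryopreservation-2 range of this ratio lay below the fresh range, and the cryopreservation-1 range overlapped both. Single genes did not overlap between cryopreservation-2 and fresh in 15.1% (higher) and 12.4% (lower) of all tested genes, and no such share was computed for ratios. Other ratios also separated groups. In cryopreservation-1, Dnmt1 to Uhrf1 (1.04 to 1.28) lay below fresh (1.29 to 1.66), and Tet3 to Tet2 (372 to 435) lay above fresh (171 to 323) and cryopreservation-2 (102 to 280).

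The 2 scarce Tet genes were measured on few reads. Tet1 had 56, 176 and 4 counts in cryopreservation-2, 539, 134 and 75 counts in cryopreservation-1 and 215, 306 and 278 counts in fresh. It stood at 1.07, 3.21 and 0.0667 CPM in cryopreservation-2, 6.98, 1.73 and 1.21 CPM in cryopreservation-1 and 2.67, 4.40 and 3.92 CPM in fresh. Both cryopreserved groups overlapped fresh, and the value of cryopreservation-2 replicate 3 was close to what a count of 0 would allow there. The log2 fold change was -1.34 in cryopreservation-2 against fresh, with a 95% interval of -3.59 to 0.92 (edgeR adjusted p = 0.502), so a several-fold fall lay within the interval and could not be told from no change at this spread. Tet2 stood at 4.71, 2.64 and 4.07 CPM in cryopreservation-2, 2.38, 2.35 and 1.87 CPM in cryopreservation-1 and 3.98, 3.25 and 5.11 CPM in fresh. All 3 cryopreservation-1 libraries lay below the other 6. For all tested genes, libraries of cryopreservation-1 lay wholly below fresh in 3.72%, and those of cryopreservation-2 wholly above cryopreservation-1 in 13.8%. Tet2 had a log2 fold change of -0.90 in cryopreservation-1 against fresh (SE 0.37, unadjusted p = 0.0347, edgeR adjusted p = 1) and 0.79 in cryopreservation-2 against cryopreservation-1 (SE 0.37, edgeR adjusted p = 0.283).

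Of the 9 genes, Dppa3 had group means that differed least. It stood at 4560, 3295 and 3329 CPM in cryopreservation-2, 3092, 4231 and 3388 CPM in cryopreservation-1 and 2839, 4043 and 3452 CPM in fresh. The groups overlapped over most of their range, and the group means lay within the SD of each other at 3728 ± 721, 3570 ± 591 and 3445 ± 602 CPM (n = 3 each). The log2 fold change was 0.11 in cryopreservation-2 against fresh (95% interval -0.35 to 0.58, edgeR adjusted p = 0.820), so a rise or fall beyond 1.50-fold lay outside the interval of this fit. It was 0.05 in cryopreservation-1 against fresh (95% interval -0.42 to 0.52, edgeR adjusted p = 1) and 0.06 between the methods (SE 0.21, edgeR adjusted p = 0.931). With a correction for gene length the values turned to -0.32, -0.11 and -0.22 in cryopreservation-2 against fresh, cryopreservation-1 against fresh and cryopreservation-2 against cryopreservation-1, and none was called. The bound of 1.50-fold does not carry over to those corrected values. The processed pseudogene Dppa3-ps had 581 to 1355 counts per library, at most 0.645% of the Dppa3 count.

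**Figure D3:**
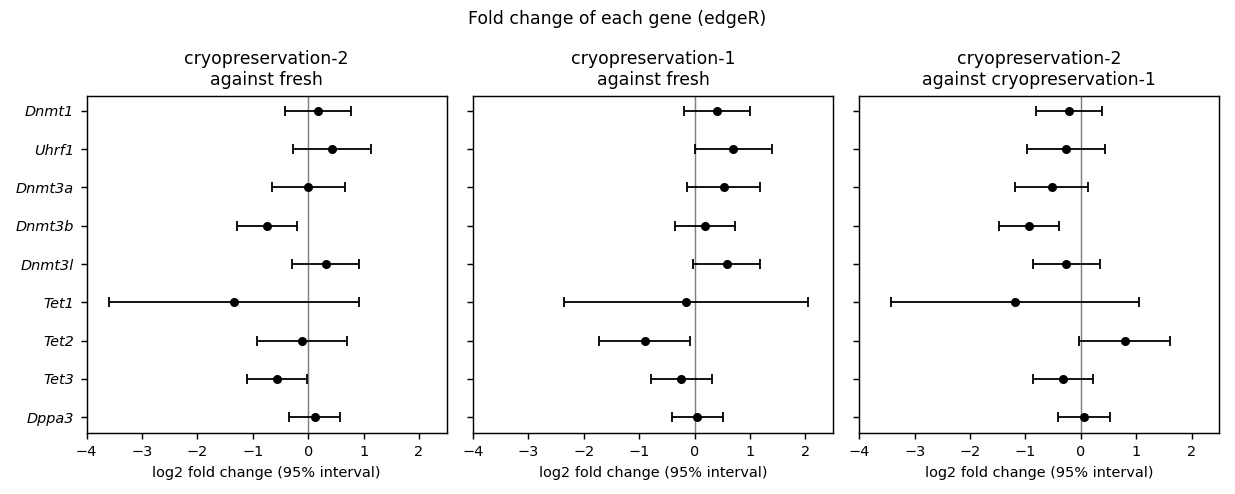
Log2 fold change of each gene with its 95% interval from edgeR, in cryopreservation-2 against fresh, cryopreservation-1 against fresh and cryopreservation-2 against cryopreservation-1. The intervals of Dnmt3b lie below 0 in both comparisons of cryopreservation-2, that of Tet1 is the widest, and no gene passed the threshold after adjustment over all 17545 genes.

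Within groups, several of the genes varied together from library to library. Dnmt1, Uhrf1 and Dnmt3a were below their group mean in cryopreservation-2 replicate 1, cryopreservation-1 replicate 2 and fresh replicate 2, and Dppa3 was above its group mean in the same 3 libraries. On the log2(CPM + 1) scale, Uhrf1 deviated by -0.44, -0.28 and -0.65 from its group mean in these libraries, and Dnmt3a by -0.54, -0.28 and -0.33. Dnmt1 deviated by -0.20, -0.44 and -0.49. Dppa3 deviated by 0.31, 0.26 and 0.25. Cryopreservation-1 replicate 1 and fresh replicate 1 showed the opposite arrangement, with Dnmt1, Uhrf1 and Dnmt3a at 0.27 to 0.50 above their group means and Dppa3 at -0.19 and -0.26. Between cryopreservation-1 and fresh these deviations went with the replicate number, with Dnmt1, Uhrf1 and Dnmt3a high in replicate 1 and low in replicate 2. In cryopreservation-2 the library with the low values is replicate 1. Of these libraries, cryopreservation-2 replicate 1 is among the 3 with many genes at 0.

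**Figure D4:**
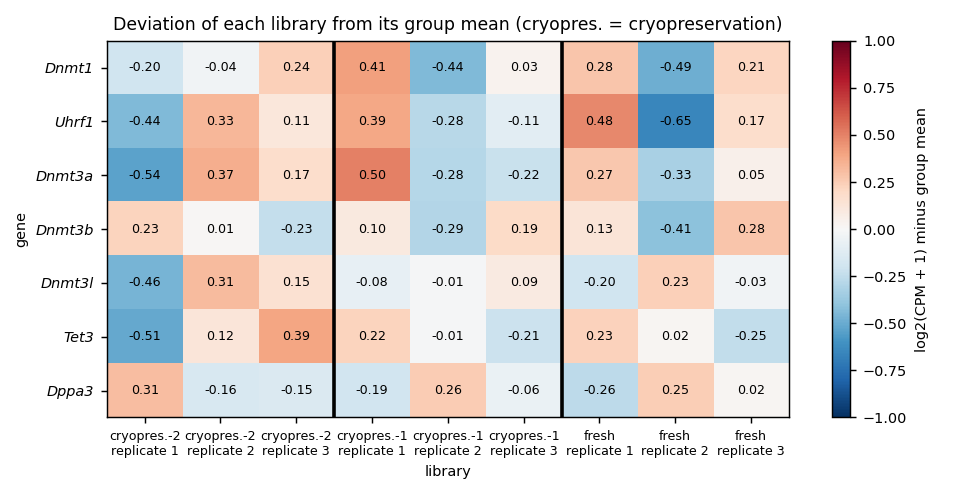
Log2(CPM + 1) of 7 of the genes in each library minus the mean of its group, in colour and digits. Dnmt1, Uhrf1 and Dnmt3a are low, and Dppa3 high, in cryopreservation-2 replicate 1, cryopreservation-1 replicate 2 and fresh replicate 2.

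Across all 9 libraries, the genes most like each main member were found by the Pearson correlation of log2(CPM + 1) among 8084 tested genes with a mean of at least 5 CPM. For Dppa3 these were Nop56 (0.929), Hook3 (0.917) and Ran (0.889). For Dnmt1 they were Canx (0.950), Ssrp1 (0.947) and Sgsm1 (0.909), and for Tet3 they were Syvn1 (0.967), Npc1 (0.965) and Traf4 (0.958). These values are descriptions over 9 points that share libraries and scaling.

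The wider pathway was read through 6 lists of other genes, 79 of which were tested. In cryopreservation-2 against fresh, 2 of the 79 were called higher and 5 lower by edgeR, against 3.18% and 2.20% of all tested genes. The higher calls include Paf1, which is known for elongation by RNA polymerase II and not for acting on Dnmt1, Uhrf1 or Tet proteins. DESeq2 called 19 of the 79 in this comparison, beside 2471 of the 16419 genes to which it gave an adjusted p. Without the 3 libraries that had the most genes at 0, which leaves 2 per group, edgeR called 0 of the listed genes. It called 194 of all genes there. Leaving out single libraries gave 0 to 6 calls, with 0 without fresh replicate 3 and 1 without fresh replicate 1. In cryopreservation-1 against fresh 0 of 79 were called by edgeR, and 0 by DESeq2. At an unadjusted p under 0.05, 4.72% of all genes passed there. In cryopreservation-2 against cryopreservation-1, 1 was called higher and 2 lower by edgeR, against 1.50% and 1.25%. DESeq2 called 15 of the 79 there, beside 1892 of the 15418 genes to which it gave an adjusted p. Without the 3 libraries, edgeR called 0 of the listed genes and 0 of all genes. Without any 1 of the cryopreservation-1 libraries, edgeR also called 0 of the listed genes between the methods. The median log2 fold change of the 79 was -0.16 in cryopreservation-2 against fresh, 0.03 in cryopreservation-1 against fresh and -0.21 between the methods, beside -0.06, 0.02 and -0.07 for all tested genes.

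Of the lower calls, Mat2a and Mthfd2 belong to the 12 tested genes of the methyl donor and folate cycle, which had a median log2 fold change of -0.46. Mat2a, the catalytic subunit of the synthetase that makes S-adenosylmethionine, stood at 104, 119 and 81.8 CPM in cryopreservation-2, 176, 155 and 158 CPM in cryopreservation-1 and 149, 198 and 191 CPM in fresh. Every cryopreservation-2 library was below the other 6, and Mat2a fell by 0.82 on the log2 scale against fresh (SE 0.20, edgeR adjusted p = 0.0434). Mthfd2, a mitochondrial enzyme of the folate cycle, stood at 315, 379 and 353 CPM in cryopreservation-2, 624, 559 and 534 CPM in cryopreservation-1 and 558, 568 and 523 CPM in fresh. It too was lower in all 3 cryopreservation-2 libraries, and its log2 fold change was -0.65 against fresh (SE 0.16, edgeR adjusted p = 0.0451) and -0.71 against cryopreservation-1 (edgeR adjusted p = 0.0472). These calls lie close to the threshold: with any 1 of the 9 libraries left out, Mat2a (adjusted p 0.0627 to 0.147) and Mthfd2 (0.0644 to 0.126 against fresh, 0.0543 to 0.188 against cryopreservation-1) were no longer called by edgeR.

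Among 21 tested genes that guide or protect methylation, 1 was called in each direction against fresh, with a median of 0.17. Kdm1b, the histone H3K4 demethylase that clears the way for imprint methylation in mouse oocytes, stood at 167, 126 and 142 CPM in cryopreservation-2, 244, 246 and 219 CPM in cryopreservation-1 and 262, 277 and 387 CPM in fresh. All 3 cryopreservation-2 libraries were the lowest, and Kdm1b fell by 1.09 on the log2 scale against fresh (SE 0.21, edgeR adjusted p = 0.0190). The call was lost without cryopreservation-2 replicate 2, cryopreservation-2 replicate 3 or fresh replicate 3, with an edgeR adjusted p of at most 0.0696. Dppa2, which in mouse embryonic stem cells keeps developmental promoters free of methylation, stood at 207, 174 and 223 CPM in cryopreservation-2, 88.1, 74.8 and 65.0 CPM in cryopreservation-1 and 83.3, 108 and 75.5 CPM in fresh. It was higher in all 3 cryopreservation-2 libraries than in the other 6, and its log2 fold change was 1.18 against fresh (SE 0.21, edgeR adjusted p = 0.0160) and 1.41 against cryopreservation-1 (edgeR adjusted p = 0.0131). That call was lost against fresh without fresh replicate 1 or 3 (adjusted p at most 0.0659), and against cryopreservation-1 without any one of the cryopreservation-1 libraries (at most 0.0743).

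Of 15 tested genes listed for the stability and export of Dnmt1, Uhrf1 and Tet proteins, Ogt fell and Paf1 rose against fresh. Ogt, the O-GlcNAc transferase that binds Tet proteins, stood at 79.8, 74.3 and 61.2 CPM in cryopreservation-2, 137, 135 and 141 CPM in cryopreservation-1 and 122, 160 and 118 CPM in fresh. The cryopreservation-2 libraries lay below all others. Ogt had a log2 fold change of -0.90 against fresh (SE 0.19, edgeR adjusted p = 0.0288) and -0.94 against cryopreservation-1 (edgeR adjusted p = 0.0345). Paf1, a subunit of an elongation complex that travels with RNA polymerase II, averaged 24.3 ± 5.36 CPM in cryopreservation-2 and 10.1 ± 1.97 CPM in fresh (SD, n = 3 each), without overlap. Its log2 fold change was 1.27 (SE 0.26, edgeR adjusted p = 0.0238). Paf1 is known for elongation and not for the stability or export of Dnmt1, Uhrf1 or Tet proteins, so its call is not read as a change among their regulators. With single libraries left out, Ogt stayed called against fresh only without cryopreservation-2 replicate 1 or cryopreservation-1 replicate 3 (edgeR adjusted p 0.0367 to 0.0980). Paf1 was lost without cryopreservation-2 replicate 3 or any 1 fresh library (at most 0.0778). Against cryopreservation-1, with single libraries left out, Ogt stayed called only without fresh replicate 2 or 3 (0.0303 to 0.129).

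**Figure D5:**
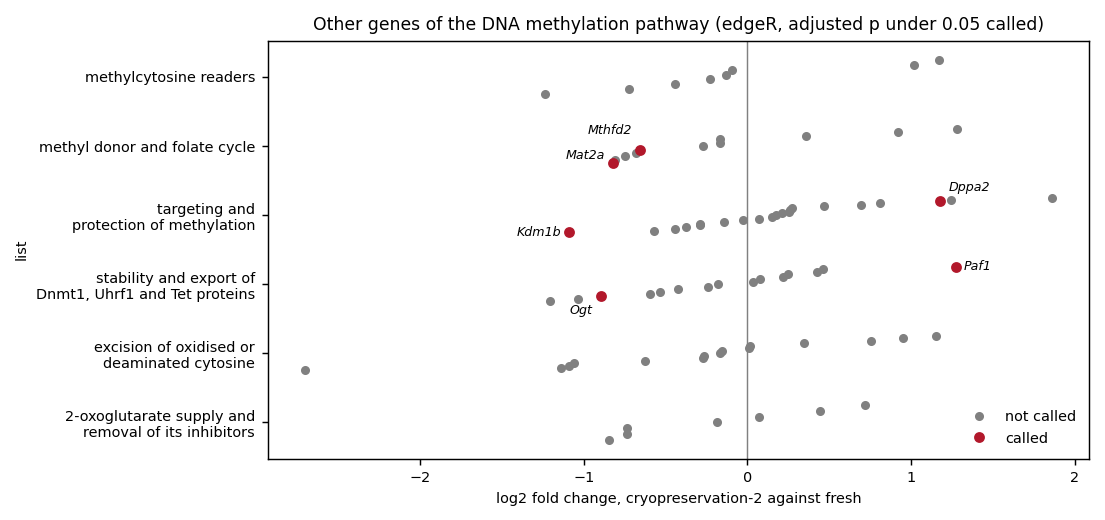
Log2 fold change in cryopreservation-2 against fresh of the tested genes in the 6 lists, with those called by edgeR in red and named, Idh3b left out because all its fresh libraries were at 0, and 1 lower call not drawn. The calls drawn are 2 higher (Dppa2, Paf1) and 4 lower (Mat2a, Mthfd2, Kdm1b, Ogt), on both sides of 0.

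The 3 remaining lists had no call. Of 8 tested methylcytosine readers (median log2 fold change -0.18 in cryopreservation-2 against fresh), Zbtb33, which binds methylated DNA through zinc fingers, had the smallest p. It averaged 9.26 ± 3.27 CPM in cryopreservation-2 and 21.8 ± 2.66 CPM in fresh, with a log2 fold change of -1.24 (SE 0.32, edgeR adjusted p = 0.0532). The list for excision of oxidised or deaminated cytosine also holds deaminases, Gadd45 genes and genes of the repair that follows, and 15 of its genes were tested (median -0.17). Among them Parp1, which senses DNA breaks, had the smallest p, at 12.1 ± 2.42 CPM in cryopreservation-2 and 5.45 ± 1.45 CPM in fresh (log2 fold change 1.15, SE 0.33, edgeR adjusted p = 0.0731). DESeq2 called both, with an adjusted p of 0.00546 for Zbtb33 and 0.0119 for Parp1. Of 8 tested genes that supply 2-oxoglutarate, the cosubstrate of Tet enzymes, or remove its inhibitors (median -0.06), Idh3b had 0, 49 and 64 counts in cryopreservation-2, 8, 31 and 98 counts in cryopreservation-1 and 0 in every fresh library. Its groups overlapped at 0 in cryopreservation-2 and fresh, and no fold is given.

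Some genes listed as markers of other cell types were called beside these genes. In cryopreservation-2 against fresh, where 5.38% of all tested genes were called, 2 of 7 tested genes of the stromal and endothelial list were, both higher. The others were not called, with log2 fold changes of -1.39 for Dcn, -1.57 for Pdgfra, -0.66 for Kdr, -0.08 for Pecam1 and 4.76 for Acta2. The list therefore did not move in 1 direction. Myh11 averaged 36.3 CPM in cryopreservation-2 and 19.7 CPM in fresh, and Krt8 1.40 and 0.0192 CPM. The summed share of that list was 0.0115% to 0.0208% of counts in cryopreservation-2, 0.0106% to 0.0185% in cryopreservation-1 and 0.0102% to 0.0171% in fresh. Of 14 oocyte markers 1 was called in the same comparison, Padi6, at 382 CPM in cryopreservation-2 and 177 CPM in fresh. The part of these shares in the results above was not tested.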

How the data were processed

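The members and the lists of other pathway genes were chosen with earlier results of these data known. Per the labels' protocols, poly(A) RNA was selected on oligo(dT) beads and made into dUTP libraries amplified by PCR, with no molecular identifiers named. Tools in the submitters' processing notes are cutadapt 1.9, HISAT2 2.0.4, StringTie 1.3.4d and GRCm38. How reads were counted, and whether by strand, is not given in the sources used here, so reads of overlapping genes may be mixed. The authors deposited a whole-number count and an FPKM value per gene and library. The deposited FPKM equalled the count over length and a library factor (residual SD at most 0.00353 log2 over 8558 genes).

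Genes passing filterByExpr (minimum count 10, total 15; 17545 genes) entered 1 edgeR 4.0.16 quasi-likelihood fit of all 9 libraries with TMM scaling, in R 4.3.3. P-values were adjusted by Benjamini and Hochberg over all tested genes per comparison, and a gene was called at an adjusted p under 0.05. Alternatives used DESeq2 1.42.0, limma 3.58.1, other filters and left-out libraries. Within groups no libraries agreed within sampling noise (chi-square per degree of freedom 78.1 to 297). The test was checked on simulated data. Replicate numbers in the labels were taken to pair libraries where every same-number pair of 2 groups correlated above 0.1 in its deviations from the group means. This held for cryopreservation-1 and fresh (0.272 to 0.473), and not for cryopreservation-2 with fresh (-0.302 to 0.166) or with cryopreservation-1 (-0.449 to 0.162). Named were all members, every called gene of the lists but 1 that is counted and not reported here, the smallest p of a list without calls, and the 3 genes most like Dppa3, Dnmt1 and Tet3. Coordinates are those of the deposited table, GENCODE M21 or RefSeq on GRCm38.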

Additional observations from a re-analysis of the deposited data

How the results depend on the processing

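The results were recomputed under up to 22 alternatives, and replicates of 3 per group limit what the test can call. Members called stayed at 0 in cryopreservation-1 against fresh under every alternative, and became 1 (Dnmt3b, lower) with DESeq2 in each comparison of cryopreservation-2. The causes of the shifts were not tested, except that leaving out libraries means fewer samples.

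All genes called in cryopreservation-2 against fresh (944) became 2471 with DESeq2, 1792 and 1654 with limma on log2(FPKM + 1) and log2(FPKM + 0.1), 429 with only the 2 groups compared, 194 without the 3 libraries that stand apart, and 231 to 786 without single libraries. In cryopreservation-1 against fresh (0) they were 43 with DESeq2, 1 with only the 2 groups, and 0 to 1 without single libraries. In cryopreservation-2 against cryopreservation-1 (483) they were 1892 with DESeq2, 1175 and 1010 with limma, 0 without the 3 libraries, and 15 to 480 without single libraries. The other pathway genes called against fresh (7) became 19 with DESeq2, 11 with limma on log2(FPKM + 1), 1 with only the 2 groups, 0 without the 3 libraries and 0 to 6 without single libraries. Against cryopreservation-1 (3) they became 15 with DESeq2, 7 with limma on log2(FPKM + 1), 6 at a mean FPKM of at least 5, 1 with length correction, 0 without the 3 libraries and 0 to 2 without single libraries. Of 21 alternatives against fresh, Mat2a stayed called in 6, Mthfd2 in 4, Ogt in 9, Kdm1b in 15 and Dppa2 in 18, and Paf1 in 12 of 20. Against cryopreservation-1, Mthfd2 stayed called in 3 of 21, Ogt in 10 and Dppa2 in 17.

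Replicate numbers paired cryopreservation-1 with fresh and not cryopreservation-2 with either. With the block in a fit of those 2 groups alone, added after seeing the data, all genes called in cryopreservation-1 against fresh became 1. With the replicate block over all libraries, all genes called were 500 against fresh and 230 between the methods, and other pathway genes 2 and 1. Block and length correction together gave 431 and 225, and 1 and 1. The block changed no member's call.

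Several members near 0 turned sign. Tet2 in cryopreservation-2 against fresh was 0.0018 and 0.0067 with limma at the pseudocounts 1 and 0.1, 0.059 with length correction and 0.045 with block and length. Dppa3 with length correction was -0.32, -0.11 and -0.22, and with the block added -0.33, -0.10 and -0.22. Dnmt1 between the methods was 0.0016 with block and length. Without the 3 libraries, Tet1 in cryopreservation-1 against fresh was 0.27, and between the methods Dnmt3l was 0.12 and Dppa3 -0.023. Without single libraries, cryopreservation-2 against fresh ranged from -0.029 to 0.32 for Dnmt1, -0.17 to 0.27 for Dnmt3a, -0.25 to 0.10 for Tet2 and -0.0071 to 0.24 for Dppa3. Cryopreservation-1 against fresh ranged from -1.32 to 0.25 for Tet1 and -0.087 to 0.18 for Dppa3. Cryopreservation-2 against cryopreservation-1 ranged from -0.42 to 0.0061 for Dnmt1, -0.40 to 0.015 for Dnmt3l and -0.039 to 0.20 for Dppa3. Dnmt3l, Tet1 and Tet2 gave no value at a mean FPKM of at least 5.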
